A study of Mus musculus with 10 samples.

Results

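The spindle assembly checkpoint and the control of the anaphase-promoting complex (APC/C) were examined in mouse neuroblastoma through 10 genes, of 54446 gene identifiers in the count files. They were picked by symbol for their place in the pathway, by a rule that uses no measured value but was set with earlier results of these data known. The 6 checkpoint genes are Bub1, Bub1b, Bub3, Mad2l1, Mad1l1 and Ttk. The other 4 are the APC/C co-activators Cdc20 and Fzr1 (whose protein is known as Cdh1), the ubiquitin-conjugating enzyme Ube2c and the inhibitor Fbxo5 (Emi1). All 10 symbols matched a gene identifier. Bub3 was listed at 0 in all 10 libraries, and the 9 others had counts in every library and passed the filter on low counts.

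The APC/C is a ubiquitin ligase that ends mitosis by marking securin and the cyclins for destruction. Kinetochores that are not attached to microtubules recruit Ttk (Mps1), Bub1, Mad1l1 and Mad2l1, and there Mad2l1 joins Bub1b (BubR1), Bub3 and Cdc20 in an inhibitor that holds the APC/C back. After attachment Cdc20 drives the APC/C into anaphase, Fzr1 takes over from late mitosis through G1, and Fbxo5 restrains the enzyme while DNA is replicated. Many of these genes are transcribed in late cell cycle, so that their level in a tissue follows its dividing cells.

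Libraries of polyadenylated RNA came from tumours of TH-MYCN mice, which carry a MYCN transgene driven by the tyrosine hydroxylase promoter and develop neuroblastoma. All groups share the TH-MYCN strain. Untreated tumours gave 3 libraries, 24 h of treatment gave 3 (labelled 2, 3 and 4) and 5 days gave 4. Treated mice are taken to have received both MLN8237, an inhibitor of the Aurora-A kinase, and AZD6738, an inhibitor of the ATR kinase. The design text joins the names with "or", and the titles of the treated libraries say "comb. treatment". The labels name no dose, age or sex, and do not say whether each library is a separate mouse. The p-values therefore measure the spread between these libraries, which may be technical.

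Totals ran from 5576926 to 5696436 counts per library, a range of 2.1%, so that 3 counts in a library correspond to 0.527 to 0.538 CPM, the unit of all levels below (counts scaled to a common library size). The adrenergic markers of the tumour, 12 genes, summed to between 1969 and 3044 CPM in 9 of the libraries. 5-day library 1 stood apart, with 676 CPM of these markers, 5843 CPM of 10 macrophage markers (252 to 658 CPM elsewhere) and 17640 CPM of 8 fibroblast markers (347 to 2648 CPM elsewhere). None of these markers was at 0 in any library. Library 1 also had 4747 CPM of 5 adipocyte markers (4.44 to 565 CPM elsewhere). The members' values at 5 days are therefore described with and without library 1. Adrenal cortex RNA was high in 5-day library 2, at 1585 CPM over 5 marker genes, and stood at 93.4 CPM in library 3 of that group and 7.64 to 12.8 CPM elsewhere. In bulk tissue, fewer cells of a type and less RNA per cell cannot be told apart.

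The promoters of the members are shown because matches to strings of known cell-cycle elements differ between them. RefSeq gives promoters for all 10 genes (build GRCm38.p6), as 12 windows from 250 bases before to 50 bases after the transcription start. 3 motifs were searched on both strands: TTTGAA, the core of the cell-cycle homology region that the MuvB complex binds, CCAAT, bound by NF-Y, and an E2F-like motif, taken as the string TTCCCGC, the string TTGGCGC, the string TTCGCGC or the string TTGCCGC. The E2F-like motif was found in 0 of the 10 genes, against 9.57% of all promoters of the table. TTTGAA was found in 6 of the 10 genes, against 17.9% of 32851 promoters of the same length, and CCAAT in 8, against 37.4%. Those 6 genes, Bub1b, Bub3, Ttk, Cdc20, Ube2c and Fbxo5, held both motifs, as did 6.95% of all promoters. Bub1 and Fzr1 held CCAAT without TTTGAA, and Mad1l1 and Mad2l1 held neither. The Mad2l1 window ends at chr6:66535270, before the gene start at 66535390 in the annotation that gave the gene coordinates. It does not span that start, and bases next to it were not searched. A match is a string of letters in this window and not a measured site. Other forms of these elements were not searched, so that a gene without a match may still hold one. The 140 bases from 120 before the start follow for 6 genes, 5′ to 3′ in the direction of transcription, with TTTGAA and CCAAT on either strand in capitals (on the opposite strand they read TTCAAA and ATTGG).

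Cdc20 (chr4:118437324-118437463, minus strand): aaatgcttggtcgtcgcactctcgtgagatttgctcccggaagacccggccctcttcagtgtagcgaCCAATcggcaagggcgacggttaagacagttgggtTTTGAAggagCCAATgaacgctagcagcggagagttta
Ube2c (chr2:164769809-164769948, plus strand): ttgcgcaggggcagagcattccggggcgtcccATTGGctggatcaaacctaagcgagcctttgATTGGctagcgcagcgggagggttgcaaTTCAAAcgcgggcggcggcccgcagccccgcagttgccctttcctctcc
Ttk (chr9:83834569-83834708, plus strand): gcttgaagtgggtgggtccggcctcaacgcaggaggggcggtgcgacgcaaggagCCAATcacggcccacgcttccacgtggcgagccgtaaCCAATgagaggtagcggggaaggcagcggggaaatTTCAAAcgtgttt
Fbxo5 (chr10:5805446-5805585, minus strand): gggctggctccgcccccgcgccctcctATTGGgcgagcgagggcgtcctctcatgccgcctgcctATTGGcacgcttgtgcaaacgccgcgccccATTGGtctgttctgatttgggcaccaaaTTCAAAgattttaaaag
Fzr1 (chr10:81378351-81378490, minus strand): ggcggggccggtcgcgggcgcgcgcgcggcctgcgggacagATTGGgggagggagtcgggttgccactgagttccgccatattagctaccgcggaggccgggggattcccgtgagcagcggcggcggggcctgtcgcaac
Mad2l1 (chr6:66535101-66535240, plus strand): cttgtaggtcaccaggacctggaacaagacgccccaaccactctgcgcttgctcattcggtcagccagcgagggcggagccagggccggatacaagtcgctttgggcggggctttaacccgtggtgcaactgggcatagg

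With the first transcribed base at position 0, the TTTGAA of Cdc20 lies at -18 to -13, between CCAAT at -53 to -49 and CCAAT at -8 to -4. The Ube2c window holds 6 CCAAT matches, of which those at -186 to -182 and -183 to -179 overlap, and TTTGAA at -29 to -24 on the opposite strand.

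Levels were compared between genes per kilobase of annotated exon, in CPM per kb. In untreated tumours Cdc20 had the highest level, 133 ± 4.18 CPM per kb (SD, n = 3), and Ube2c followed at 112 ± 5.05. Bub1b stood at 66.0 ± 2.12 and Fbxo5 at 48.1 ± 5.48, and these 4 did not overlap with one another in any untreated library. Fzr1 at 28.4 ± 1.39 and Bub1 at 28.1 ± 2.57 CPM per kb overlapped, as neighbours in the order. Ttk, at 24.0 ± 1.92, lay below both means and between 21.8 and 25.3, so that it was under every Fzr1 value (27.0 to 29.8) and every Bub1 value (25.7 to 30.8). Mad1l1 at 15.7 ± 0.758 and Mad2l1 at 13.7 ± 0.571 were lowest and did not overlap. Annotated exons include long untranslated ends (8390 bases for Mad2l1), and a gene whose transcripts use less of them is placed too low on this scale.

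Bub3, which carries Bub1 and Bub1b to the kinetochore, is listed at 0 in all 10 libraries, and no level can be given for it. In the annotation (GENCODE M21, mm10), Bub3 at chr7:131560222-131571895 on the plus strand lies wholly within the span of Fgfr2, chr7:130162451-133123350, on the other strand. Fgfr2 had 5274 counts over the 10 libraries. All 68 genes within the Fgfr2 span, 29 of them protein-coding, were at 0. Across the genome, 1258 of 1263 protein-coding genes that lie wholly within another gene were at 0, against 3297 of 20655 other protein-coding genes. The 0 for Bub3 is thus shared with nearly all genes in that position, and the sources used here do not name the counting rule that the authors used. Among the other members, Ube2c (chr2:164769898-164778822) shares 592 of 2600 exon bases with Tnnc2 on the opposite strand, which had 1 count in all. Cdc20 (chr4:118432901-118437352) shares 53 exon bases with Elovl1.

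After 24 h of treatment, Cdc20 and Ube2c were the members whose 3 libraries all lay above the 3 untreated ones. Cdc20 stood 1.32-fold higher on average and Ube2c 1.12-fold higher, and the other members overlapped with untreated tumours. That is 2 of 9, where 7.11% of 14956 tested genes were higher with no overlap. Log2 fold changes were positive for 8 of the 9, where 48.5% of all genes were positive. Of the 8, Fbxo5 (0.000768) and Bub1 (0.00749) were near 0. With replicate number as a block, 1 of 9 was positive, where 48.1% of all genes were. The edgeR quasi-likelihood test called 0 of the 9 (adjusted p = 1.0 for each), and 0.0% of all genes. No member had an unadjusted p under 0.05, as 1.76% of genes did.

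Among the co-activators, Cdc20 had 343, 296 and 347 CPM in 24 h libraries 2, 3 and 4, against 257, 247 and 242 CPM in untreated libraries 1, 2 and 3. The lowest treated value lay clear of the highest untreated value. The log2 fold change was 0.40 ± 0.38 (SE, adjusted p = 1.0, edgeR). Fzr1 had 150, 128 and 142 CPM at 24 h, against 128, 134 and 121 CPM untreated. These ranges overlapped, at a log2 fold change of 0.13 ± 0.20 (SE).

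Ube2c, the enzyme that starts ubiquitin chains on APC/C substrates, had 309, 337 and 327 CPM at 24 h, against 297, 299 and 275 CPM in untreated tumours. The gap between the groups was narrow, and the log2 fold change was 0.16 ± 0.34 (SE). Fbxo5 had 101, 102 and 86.6 CPM at 24 h, against 108, 96.0 and 85.6 CPM untreated. Its ranges were nearly the same, with a log2 fold change of 0.00 ± 0.36 (SE).

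Of the checkpoint genes, Bub1b, a pseudokinase of the inhibitory complex, had 376, 272 and 318 CPM at 24 h, against 293, 276 and 277 CPM untreated. The 24 h library 3 lay below every untreated library, and the log2 fold change was 0.19 ± 0.37 (SE). Ttk, the kinase that starts checkpoint signalling, had 145, 124 and 134 CPM at 24 h and 122, 125 and 107 CPM untreated, a log2 fold change of 0.19 ± 0.36 (SE). The 24 h library 3 was the lowest of its group for both genes.

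The scaffold kinase Bub1 averaged 123 ± 16.6 CPM at 24 h and 122 ± 11.2 CPM untreated (SD, n = 3 each). Mad1l1, the kinetochore anchor of Mad2l1, averaged 59.0 ± 11.9 CPM at 24 h and 57.1 ± 2.76 CPM untreated (SD, n = 3 each). Mad2l1 was the member with a negative log2 fold change, -0.09 ± 0.30 (SE). It had 110, 112 and 102 CPM at 24 h, against 119, 116 and 110 CPM untreated, with overlap. Beside these values, 9 of 10 tested macrophage markers had positive log2 fold changes at 24 h, with sums of 458 to 658 CPM at 24 h against 252 to 413 CPM untreated. Their part in the members' values was not tested.

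**Figure D1:**
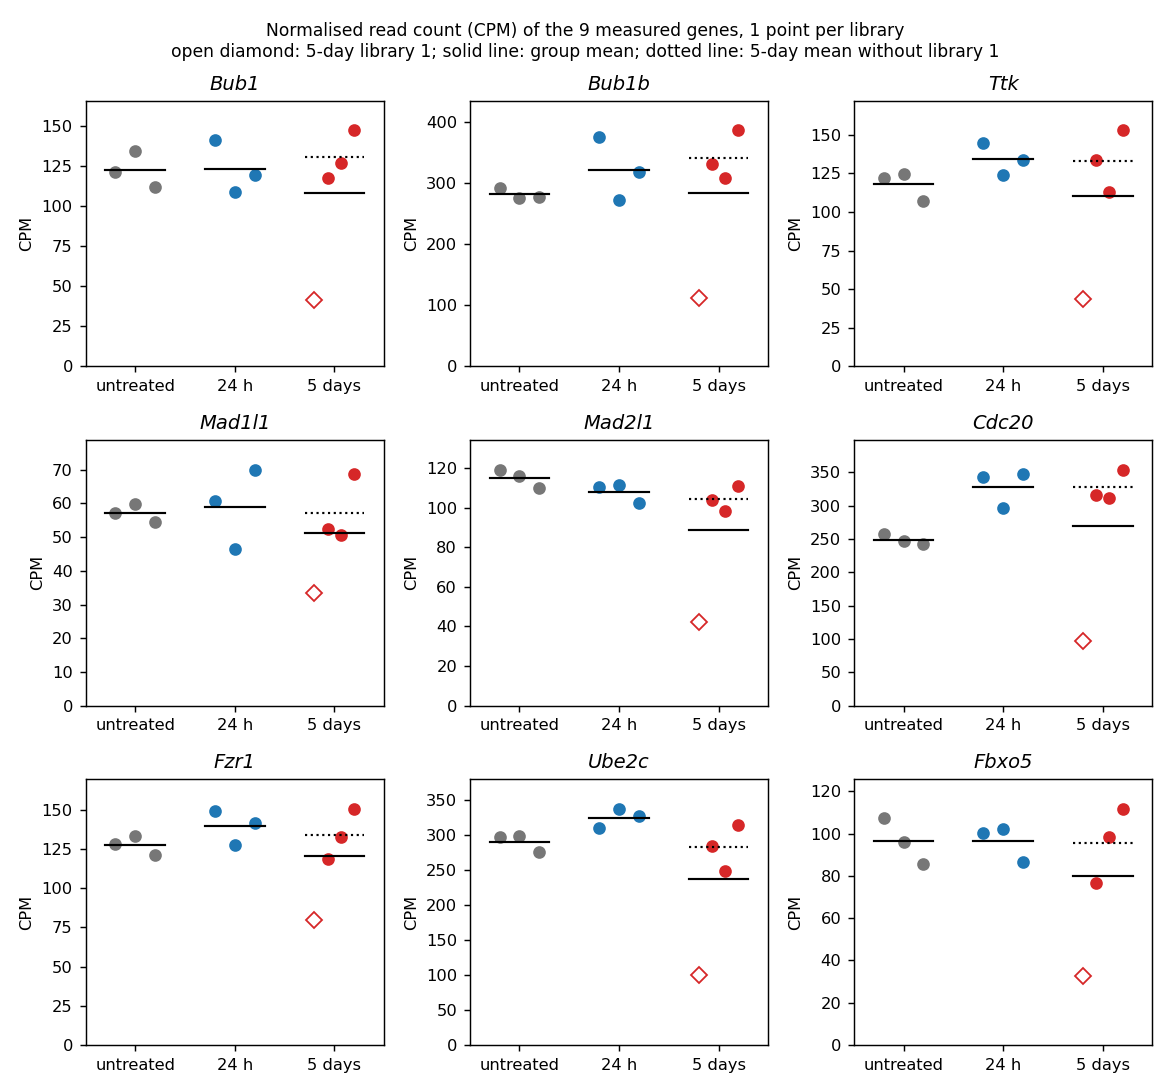
CPM of the 9 measured genes in every library, 1 panel per gene, with untreated, 24 h and 5-day libraries from left to right as points and the group mean as a line. The 5-day library 1 is the low point in every panel (97.8 CPM for Cdc20), and the 24 h points of Cdc20 and Ube2c lie above all their untreated points.

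The spread behind the test depended on 5-day library 1, since all 10 libraries share 1 estimate of it. With that library in the fit the biological coefficient of variation was 40.8%, and without it 18.9%. Without it the log2 fold change of Cdc20 at 24 h was 0.41 ± 0.09 (SE), with an unadjusted p of 0.000667 and an adjusted p of 0.227 in edgeR. Cdc20 alone of the 9 had an unadjusted p under 0.05, where 8.1% of 14699 genes did and 0.0136% were called. DESeq2 called 0 members and 0.0% of genes over all 10 libraries, and no member had an unadjusted p under 0.05 in it. Without 5-day library 1, DESeq2 called Cdc20 higher at 24 h (log2 fold change 0.40, adjusted p = 0.00933), and it called 0.558% of all genes higher. The call of Cdc20 thus differed between the tools, and it rests on leaving out a library of the group that the comparison does not use.

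After 5 days, no member was separate from untreated tumours over all 4 treated libraries, where 4.01% of genes were higher and 4.89% lower with no overlap. Library 1 of the 5-day group was the lowest of all 10 libraries for each of the 9 genes. In the other 3 libraries Cdc20 and Bub1b lay above every untreated library, 2 of 9 members where 6.64% of genes did so. Cdc20 was in this position at both times, as 2.05% of genes were.

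Cdc20 had 97.8, 316, 312 and 354 CPM in 5-day libraries 1 to 4, against 257, 247 and 242 CPM untreated. The first value lay below and the other 3 above all untreated values. The log2 fold change was 0.12 ± 0.36 (SE, adjusted p = 0.891, edgeR) over all libraries. Without library 1, Cdc20 averaged 327 ± 23.4 CPM at 5 days (SD, n = 3) and 249 ± 7.81 CPM untreated (SD, n = 3). The change was then 0.40 ± 0.09 on the log2 scale (SE, unadjusted p = 0.000844, adjusted p = 0.243, edgeR). DESeq2 called it higher in these 9 libraries (adjusted p = 0.00908), as it called 0.395% of genes. In edgeR, Cdc20 and Bub1b were the 2 of 9 members with an unadjusted p under 0.05 in these libraries, where 8.52% of genes had one and 0.0% were called.

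Fzr1 had 79.9, 119, 133 and 151 CPM at 5 days, against 128, 134 and 121 CPM untreated. Even without library 1 the groups overlapped, at a log2 fold change of 0.07 ± 0.10 (SE).

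Bub1b had 112, 331, 308 and 386 CPM at 5 days, against 293, 276 and 277 CPM untreated. Apart from library 1, each treated value was above each untreated value. Its log2 fold change was 0.01 ± 0.35 (SE) over all libraries and 0.28 ± 0.12 without library 1 (SE, unadjusted p = 0.0398, adjusted p = 0.573, edgeR). Ttk had 43.4, 134, 113 and 153 CPM at 5 days, and Bub1 had 41.7, 118, 127 and 147 CPM. Both overlapped with their untreated values also without library 1, where log2 fold changes were 0.17 ± 0.12 for Ttk and 0.09 ± 0.12 for Bub1 (SE).

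Mad2l1 had 42.1, 104, 98.4 and 111 CPM at 5 days, against 119, 116 and 110 CPM untreated. Its mean was lower at 5 days with library 1 (88.8 ± 31.6 CPM, SD, n = 4) and without it (104 ± 6.37 CPM, SD, n = 3) than in untreated tumours (115 ± 4.79 CPM, SD, n = 3). Library 4 lay within the untreated range, and the log2 fold change was -0.37 ± 0.28 over all libraries and -0.14 ± 0.08 without library 1 (SE). Mad1l1 averaged 51.2 ± 14.4 CPM at 5 days (SD, n = 4), or 57.2 ± 9.93 CPM without library 1 (SD, n = 3), and 57.1 ± 2.76 CPM untreated (SD, n = 3). Its log2 fold change was -0.15 ± 0.23 over all libraries and 0.00 ± 0.15 without library 1 (SE), so that the lower mean rested on that library.

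Ube2c had 99.9, 285, 248 and 314 CPM at 5 days, against 297, 299 and 275 CPM untreated, and the values overlapped with and without library 1. Fbxo5 had 32.5, 76.9, 98.4 and 112 CPM at 5 days, against 108, 96.0 and 85.6 CPM untreated. Among 5-day libraries 2 to 4, the lowest Fbxo5 value was below and the highest above the untreated range. The edgeR test called 0 of the 9 members (adjusted p from 0.588 to 0.990) and 0.0% of all genes. No member had an unadjusted p under 0.05, where 8.4% of genes did, and 7 of the 9 log2 fold changes were negative, where 49.4% of genes were. DESeq2 on all 10 libraries also called 0 members, with 0.14% of genes called.

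**Figure D2:**
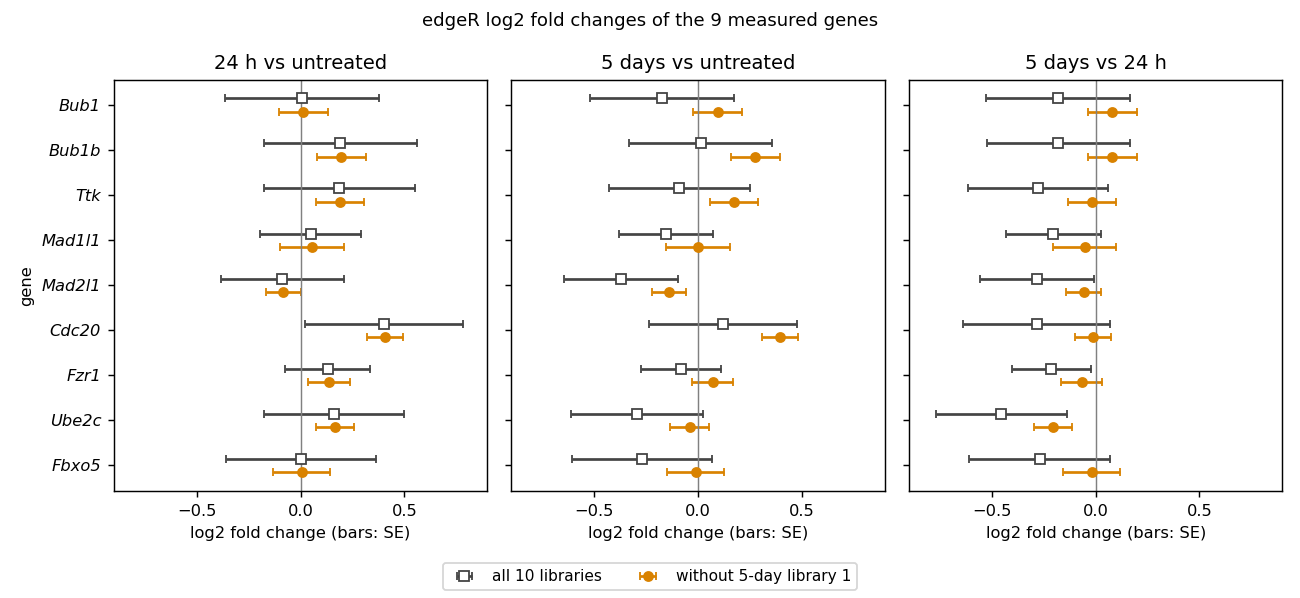
Log2 fold changes of the 9 measured genes (x axis) with their SE as bars, in panels for 24 h vs untreated, 5 days vs untreated and 5 days vs 24 h, with all 10 libraries (open squares) and without 5-day library 1 (filled circles). Cdc20 is at 0.40 and 0.41 at 24 h, and at 0.12 with and 0.40 without that library at 5 days.

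Between the treatment times, all 9 members had negative log2 fold changes at 5 days relative to 24 h, from -0.45 for Ube2c to -0.18 for Bub1b, where 47.2% of all genes were negative. This rested on 5-day library 1, without which 7 of 9 were negative, where 50.5% of genes were, with a median of -0.02. Cdc20 was then at -0.01 ± 0.09 (SE). Ube2c was at -0.21 ± 0.09 without library 1 (SE, unadjusted p = 0.0457, adjusted p = 0.639, edgeR). It was the 1 member with an unadjusted p under 0.05 there, where 7.76% of genes had one and 0.0% were called. It had 285, 248 and 314 CPM in 5-day libraries 2 to 4, against 309, 337 and 327 CPM at 24 h, with overlap. No member was called over all 10 libraries by edgeR (adjusted p from 0.598 to 0.841, 0.0% of genes called) or DESeq2 (0.0201% of genes called). None had an unadjusted p under 0.05 in edgeR, as 6.3% of genes did.

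Ratios of members within a library were compared next, since both genes of a pair are read from the same RNA. The difference in mean log2 ratio (after adding 0.5 CPM) was tested with exact two-sided permutation tests, 8 in all. With 3 against 3 libraries the smallest possible p is 0.1, and with 4 against 3 it is 0.0571, so that no ratio could pass 0.05. The pairs were chosen with earlier results of these data known. How many pairs among all genes separate without overlap was not counted, so that the separations below have no share to be set against.

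The ratio of Cdc20 to Mad2l1 sets the APC/C co-activator against the checkpoint protein that binds it. It was 3.11, 2.65 and 3.39 in 24 h libraries, against 2.16, 2.14 and 2.21 in untreated libraries. At 5 days it was 2.32, 3.05, 3.17 and 3.19. All treated libraries of both times, 5-day library 1 included, lay above all untreated libraries. The mean log2 ratio was 0.49 higher at 24 h (exact permutation p = 0.1, adjusted 0.2) and 0.42 higher at 5 days (exact permutation p = 0.0571, adjusted 0.2), and both p-values are the smallest that their designs allow.

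The co-activator ratio Cdc20 to Fzr1 was 2.29, 2.32 and 2.45 in 24 h libraries, against 2.01, 1.85 and 2.00 untreated, with no overlap (log2 difference 0.27, exact permutation p = 0.1, adjusted 0.2). At 5 days it was 1.22, 2.66, 2.36 and 2.35. Library 1 lay below, and the other 3 libraries above, every untreated value, and the log2 difference over all 4 was 0.08 (exact permutation p = 0.8, adjusted 0.8).

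Ube2c to Cdc20 was 1.02, 0.902, 0.796 and 0.886 in 5-day libraries 1 to 4, against 1.15, 1.21 and 1.14 untreated. All 4 treated values were below the untreated values, with a log2 difference of -0.38 (exact permutation p = 0.0571, adjusted 0.2). At 24 h the ratio was 0.901, 1.14 and 0.940, and library 3 reached the untreated range. The log2 difference was then -0.24 (exact permutation p = 0.2, adjusted 0.32). Fbxo5 to Fzr1, the inhibitor over a co-activator that it binds, overlapped with untreated libraries at 24 h (-0.13, exact permutation p = 0.4, adjusted 0.457) and at 5 days (-0.28, exact permutation p = 0.343, adjusted 0.457).

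**Figure D3:**
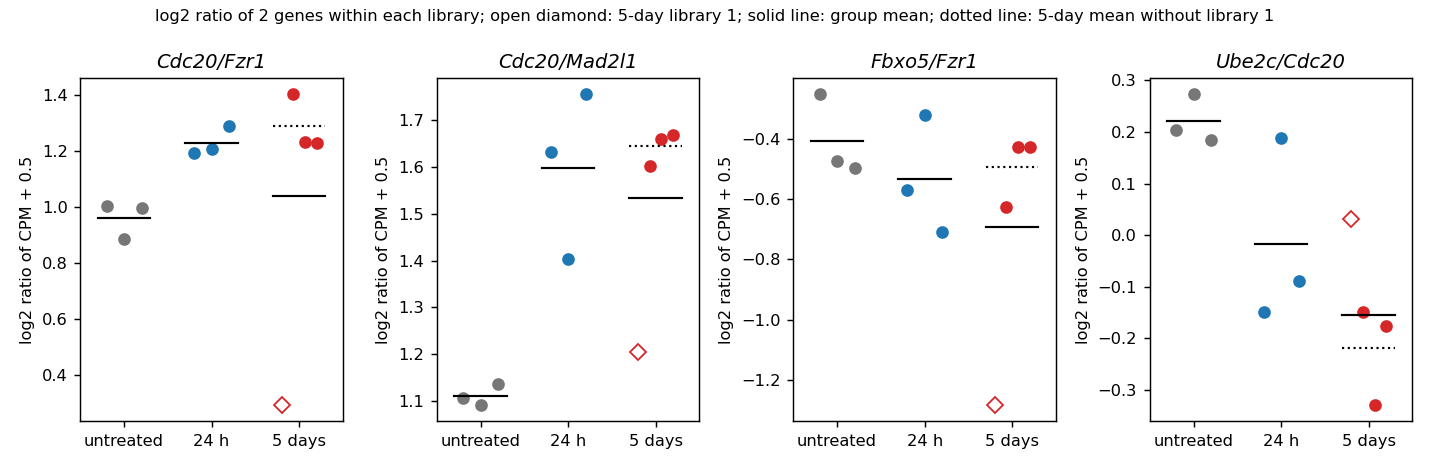
Log2 ratios of 4 pairs of members (y axes) in each untreated, 24 h and 5-day library, as points with the group mean as a line. Cdc20/Mad2l1 is between 1.09 and 1.14 in untreated libraries and between 1.2 and 1.76 in all 7 treated libraries.

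The members were also set against DNA replication, as each gene's log2 CPM minus the mean of 8 replication genes (Mcm2 to Mcm7, Pcna and Cdc45) in the same library. On this scale Cdc20 stood at 0.44, 0.52 and 0.69 in 24 h libraries, against 0.07, 0.02 and 0.07 in untreated libraries. It stood at 0.09, 0.55, 0.47 and 0.43 at 5 days. All 7 treated libraries were above the untreated ones. Bub1b and Fzr1 likewise lay above all untreated libraries at both times, and Ttk at 24 h. That is 4 of 9 members at 24 h, where 10.1% of all genes were in this position, and 3 of 9 at 5 days, where 7.71% were. Fewer genes were lower with no overlap on this scale, 2.36% at 24 h and 0.582% at 5 days, so that the scale leans upward for genes at large. In 5-day library 1 the excess of Cdc20 was small, 0.09 against a highest untreated value of 0.07. Margins at 5 days were also small for Bub1b, at 0.289 in library 1 against 0.264. Fzr1 stood at -0.852 in 5-day library 2 against -0.870. Mad2l1, Mad1l1, Bub1, Ube2c and Fbxo5 overlapped with untreated libraries at both times.

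The surrounding pathway was described with lists chosen for function. The genes named from each list at 24 h had its smallest unadjusted p there, and are given as a description. At 24 h, 7 of 17 substrates, 2 of 11 checkpoint partners and 2 of 7 further regulators were higher with no overlap. So were 0 of 14 core subunits, 0 of 8 replication genes and 7.11% of all tested genes. 2 core subunits and 1 substrate were lower with no overlap, and the share of all genes lower is not given here. Of 14 APC/C core subunits, 7 had positive and 7 negative log2 fold changes at 24 h (median 0.01), against a median of -0.01 over all genes. Anapc4, a platform subunit, averaged 101 ± 5.64 CPM at 24 h and 118 ± 5.36 CPM untreated (SD, n = 3 each), with no overlap. Anapc10, which helps to bind substrates, averaged 11.3 ± 2.40 CPM at 24 h and 14.7 ± 2.27 CPM untreated (SD, n = 3 each), also with no overlap. Its highest 24 h value, 13.27 CPM, lay barely under its lowest untreated value, 13.31 CPM. Anapc15, which promotes turnover of the checkpoint complex, averaged 8.87 ± 0.340 CPM at 24 h and 7.05 ± 1.93 CPM untreated (SD, n = 3 each).

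Of 11 tested checkpoint partners, 8 were positive at 24 h (median 0.17). Sgo1, which protects cohesin at centromeres, averaged 56.3 ± 6.84 CPM at 24 h and 42.4 ± 0.995 CPM untreated (SD, n = 3 each), without overlap. Mad2l1bp (p31comet), which helps to take Mad2l1 out of the inhibitory complex, averaged 16.8 ± 2.16 CPM at 24 h and 13.5 ± 0.988 CPM untreated (SD, n = 3 each). Spdl1, which recruits dynein to kinetochores, averaged 72.2 ± 9.77 CPM at 24 h and 57.0 ± 4.69 CPM untreated (SD, n = 3 each). The last pair of genes overlapped between the groups.

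Among 7 tested further regulators, 6 were positive at 24 h (median 0.08). Cks2, a Cdk-binding protein that also aids APC/C phosphorylation, averaged 67.9 ± 5.71 CPM at 24 h and 49.0 ± 5.79 CPM untreated (SD, n = 3 each), with no overlap. Cdc14b, a phosphatase, averaged 3.82 ± 0.903 CPM at 24 h and 2.04 ± 0.704 CPM untreated (SD, n = 3 each). It was counted above as higher with no overlap. Its lowest 24 h value and its highest untreated value were both 2.794 CPM, in effect a tie at a low level. Usp37, a deubiquitinase that counters APC/C with Fzr1, averaged 59.6 ± 4.76 CPM at 24 h and 70.9 ± 9.07 CPM untreated (SD, n = 3 each), with overlap.

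APC/C substrates had the highest median of these lists at 24 h, 0.26, with 13 of 17 positive. Aurka, the kinase that MLN8237 inhibits, averaged 198 ± 26.3 CPM at 24 h and 129 ± 9.15 CPM untreated (SD, n = 3 each). Hmmr, a spindle protein, averaged 218 ± 31.9 CPM at 24 h and 156 ± 3.96 CPM untreated (SD, n = 3 each). Cdc6, which loads the replicative helicase, had a change of the opposite sign, with 31.3 ± 2.71 CPM at 24 h and 48.3 ± 7.47 CPM untreated (SD, n = 3 each). None of the 3 overlapped between groups. Their log2 fold changes were 0.62 ± 0.38 for Aurka, 0.48 ± 0.33 for Hmmr and -0.63 ± 0.31 for Cdc6 (SE).

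The 8 replication genes were all negative at 24 h, with a median of -0.05. Mcm4 had the smallest unadjusted p of these, at 129 ± 22.4 CPM at 24 h and 158 ± 3.13 CPM untreated (SD, n = 3 each), and Mcm2 and Mcm3 followed with log2 fold changes of -0.14 ± 0.38 and -0.12 ± 0.29 (SE). No gene of any of these lists was called by edgeR in any comparison, over all 10 libraries or without 5-day library 1. Over all 10 libraries, 0 genes of these lists had an unadjusted p under 0.05 at 24 h. Without 5-day library 1, DESeq2 called 5 of 17 substrates at 24 h, where it called 0.714% of all genes. Of the 5, Aurka (adjusted p = 0.000861), Hmmr (adjusted p = 0.0137), Ccnb1 (adjusted p = 0.0269) and Tpx2 (adjusted p = 0.0425) were higher and Cdc6 (adjusted p = 0.0419) was lower. DESeq2 also called 1 of 11 checkpoint partners higher, the mitotic kinase Plk1 (adjusted p = 0.0264), and 4 of 10 macrophage markers higher, and none of the core subunits, further regulators or replication genes. At 5 days the same fit called Aurka higher (adjusted p = 0.0116) and no other gene of these pathway lists, where it called 0.524% of all genes. Haspin, a checkpoint partner, and Tk1, a substrate, lie wholly within other genes and were at 0 like Bub3.

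At 5 days without library 1, substrates had 13 of 17 positive (median 0.19), checkpoint partners 9 of 11 (median 0.14), core subunits 6 of 14 (median -0.04) and replication genes 3 of 8 (median -0.02). The members themselves had 6 of 9 positive, where 49.5% of all genes were, with a median of 0.07. Over all 4 libraries the same medians were -0.07 for substrates, -0.09 for partners, -0.08 for core subunits, -0.25 for replication genes and -0.16 for the members. Cdc6 was below all untreated libraries also with library 1 included, at 27.5 ± 10.01 CPM at 5 days (SD, n = 4) and 48.3 ± 7.47 CPM untreated (SD, n = 3), with a log2 fold change of -0.81 ± 0.29 (SE, unadjusted p = 0.0199, adjusted p = 0.538, edgeR).

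The 3 genes of each list with the smallest unadjusted p at 5 days are given as a description, since that p chose them. The core subunit Cdc26 averaged 37.1 ± 1.15 CPM at 5 days (SD, n = 4) and 41.0 ± 1.89 CPM untreated (SD, n = 3), and its library 1, at 35.8 CPM, was close to the others. Mad2l1bp averaged 16.0 ± 1.10 CPM at 5 days (SD, n = 4) and 13.5 ± 0.988 CPM untreated (SD, n = 3). Neither overlapped with untreated tumours. Mcm4 and Cdc6 lay below all untreated libraries in all 4, and Cdc14b above them, with 20.7 CPM in library 1 and 2.84 to 3.62 CPM in the others against at most 2.79 CPM untreated. The other 10 (Anapc4, Cdc16, Zw10, Trip13, Usp37, Cks1b, Skp2, Cdc25a, Mcm3 and Pcna) had log2 fold changes between -0.39 for Usp37 and -0.18 for Cdc16 over all 4 libraries, and overlapped with untreated tumours. Most of these sizes rested on library 1. Without it the same 10 genes lay between -0.26 for Usp37 and -0.02 for Pcna, with Trip13 at -0.04 in place of -0.29 and Cdc25a at -0.11 in place of -0.37. Without it Cdc14b was at 0.69 in place of 1.89, Mcm4 at -0.18 in place of -0.41 and Cdc6 at -0.59 in place of -0.81.

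Mki67, a general marker of dividing cells, averaged 945 ± 47.0 CPM at 24 h and 785 ± 114 CPM untreated (SD, n = 3 each), with overlap. In 5-day libraries 2 to 4 it averaged 908 ± 46.1 CPM (SD, n = 3), also with overlap. Top2a, the mitotic topoisomerase, averaged 723 ± 85.5 CPM at 24 h and 724 ± 77.3 CPM untreated (SD, n = 3 each), and 664 ± 10.6 CPM in 5-day libraries 2 to 4 (SD, n = 3). Mycn averaged 92.4 ± 11.6 CPM at 24 h and 97.2 ± 16.3 CPM untreated (SD, n = 3 each), and 98.5 ± 5.75 CPM in 5-day libraries 2 to 4 (SD, n = 3). The Mycn counted here is the mouse gene on chromosome 12, and no level is given for the MYCN transgene. In 5-day library 1, Mki67 had 345 CPM, Top2a 239 CPM and Mycn 21.6 CPM, each below every other library.

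The low values of 5-day library 1 were not uniform over the pathway. Relative to the mean of 5-day libraries 2 to 4, the 9 members had a median of 0.340 times that mean in library 1, and 7 of 9 were under 0.5 times, where 17.1% of 14956 genes were. Cdc20 was lowest at 0.299 times, and Bub1, Ttk and Bub1b lay between 0.319 and 0.328 times. Fbxo5 was at 0.340, Ube2c at 0.354 and Mad2l1 at 0.404 times.

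Fzr1 at 0.596 times and Mad1l1 at 0.584 times were the least low. APC/C core subunits had a median of 0.859 times, with 1 of 14 (Cdc23) under 0.5 times. Substrates had a median of 0.359, replication genes of 0.372 and adrenergic markers of 0.294 times. Macrophage markers stood at a median of 10.8 times, fibroblast markers at 16.8 times and adipocyte markers at 19.1 times in the same library, with all tested genes at a median of 0.971 times. The part of these other cells in the members' values was not tested.

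**Figure D4:**
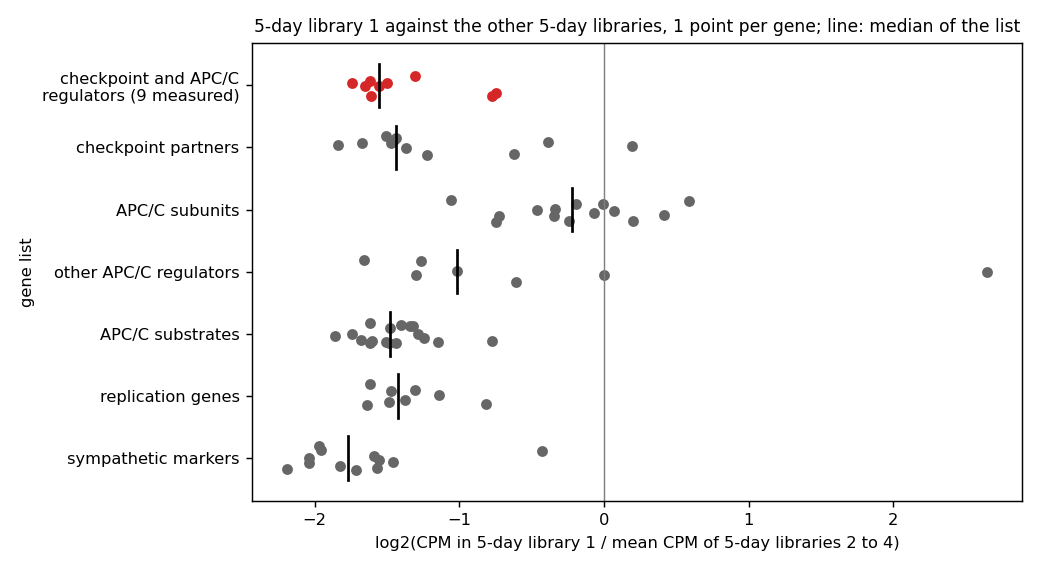
Level in 5-day library 1 divided by the mean of 5-day libraries 2 to 4 (log axis), 1 point per gene, for the members and the other lists. The 9 members lie between 0.299 and 0.596 times, while APC/C core subunits have a median of 0.859 times.

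Likeness to Cdc20 was measured over the 9 libraries without 5-day library 1, as the root mean square difference of log2 CPM after each gene was centred on its own mean. Of 12508 genes with a mean of at least 5 CPM, the closest were Kifc1 (0.05), Spag5 (0.05), Ccnb1 (0.05), Kif2c (0.06) and Dbf4 (0.06). Kifc1 and Kif2c encode mitotic kinesins, Spag5 a spindle protein, Ccnb1 cyclin B1, itself a substrate of the APC/C with Cdc20, and Dbf4 the activator of the Cdc7 kinase. Ccnb1 had 229, 188 and 217 CPM at 24 h, against 173, 154 and 144 CPM untreated. It had 56.7, 206, 191 and 219 CPM at 5 days, and library 1 is again the low one.

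Among the members, Bub1b ranked 71 in likeness to Cdc20, Ttk 150 and Fzr1 351. Bub1 ranked 1238, Ube2c 1768, Mad1l1 2234, Fbxo5 4398 and Mad2l1 4862. The closest pair of members was Bub1 with Fzr1, at 0.09, and the most distant was Mad2l1 with Cdc20, at 0.26. These distances describe 9 libraries that share their scaling, and they carry no test.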

How the data were processed

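Libraries of polyadenylated RNA from TH-MYCN tumours were untreated (n = 3), treated for 24 h (n = 3) or for 5 days (n = 4). The deposited files, 1 for each library, hold raw counts as the authors made them, in whole numbers for each Ensembl identifier and with no normalization. Per the submitters' processing notes, the build was mm10 and the tools included TopHat2 2.1.1, HISAT2 and edgeR, with no role named for each. No source names the read counter or its strand setting, so that reads of overlapping genes on opposite strands cannot be told apart. Totals lay between 5576926 and 5696436 counts, and the precision of a single count value is limited to counting error beside the spread between libraries. The counts of libraries of a group differed by 6.01 to 160 times chi-square over its degrees of freedom, more than sampling noise, so that no pair was counted as 1 library.

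Symbols and coordinates came from GENCODE M21, which named 54409 of 54446 identifiers. In R 4.3.3, edgeR 4.0.16 kept 14956 genes (filterByExpr, minimum count 10, minimum total 15). TMM gave factors of 1.001 to 1.039, except 0.812 in 5-day library 1. A robust quasi-likelihood model with group means was fitted to all 10 libraries, and p-values were adjusted over all tested genes (Benjamini-Hochberg, threshold 0.05). CPM use TMM-scaled library sizes. Ratios used log2 of CPM plus 0.5 and exact two-sided permutation tests (scipy 1.17.1), adjusted over 8 tests. The fits were run on simulated data with planted changes larger than those of the members. Such data do not show whether changes of the members' size would be found. Alternatives were DESeq2 1.42.0, its size factors, other filters, the 2 compared groups alone, replicate number as a block, pseudocounts of 0.1 and 1 CPM, and each library left out. A fit without 5-day libraries 1 and 2 was added after seeing the data. Genes outside the 10 were named by a rule: the 3 per list with the smallest unadjusted p against untreated tumours, 3 fixed genes (Mki67, Top2a and Mycn) and the 5 most like Cdc20. Cdc23, Plk1 and Tpx2, which small counts refer to, were named after their values were seen. The 10 genes, the lists and the tests were chosen with earlier results of these data known.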

Additional observations from a re-analysis of the deposited data

Results flagged for a closer look

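In 5-day library 1, 3 values stood apart from the other 3 libraries of the group, because the gap to the nearest library passed Dixon's 95% limit for 4 samples as a share of the group's whole range. Its Cdc20 level was 97.8 CPM, against 312 to 354 CPM in 5-day libraries 2 to 4, a gap of 0.836 of the range. Its log2 ratio of Cdc20 to Fzr1 was 0.29, with a gap of 0.843, and its log2 ratio of Cdc20 to Mad2l1 was 1.21, with a gap of 0.859. The first 2 lay below all untreated libraries, and the Cdc20 to Mad2l1 ratio lay above them. Chance flags about 1 in 20 groups in this way, and the 3 values share the Cdc20 count of that library.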

How the results depend on the processing

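The count of members called was 0 in each of the 3 comparisons under every edgeR alternative and under DESeq2 on all 10 libraries. With DESeq2 and 5-day library 1 left out, an alternative chosen after seeing the data, it was 1.0 at 24 h and 1.0 at 5 days against untreated tumours, Cdc20 each time (log2 fold changes 0.400 and 0.400, adjusted p = 0.00933 and 0.00908). Among the genes named from the lists, the same fit called Aurka (0.614), Hmmr (0.481), Ccnb1 (0.426), Tpx2 (0.357), Plk1 (0.413) and Cdc6 (-0.626) at 24 h. The call of Cdc20 depends on both the tool and the library.

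Values below are log2 fold changes whose sign turned, none of them called. With replicate number as a block, values at 24 h were -0.357 for Bub1, -0.173 for Bub1b, -0.231 for Mad1l1, -0.169 for Ttk, -0.0576 for Fzr1, -0.169 for Ube2c, -0.293 for Fbxo5 and -0.0435 for Mki67, and at 5 days -0.258 for Bub1b and -0.174 for Cdc20. Cdc20 at 24 h kept its sign but was 0.0114 with the block (SE 0.404), against 0.402 without it, and 0.388 with the block and without 5-day library 1. Deviations from group means correlated from -0.395 to 0.247 over 8 same-numbered pairs and from -0.549 to 0.487 over 25 others. Deviations in the 5-day group depend on its library 1. Between untreated and 24 h libraries, same-numbered pairs stood at 0.211 and 0.247, and the others between -0.291 and 0.0493. The labels do not say what replicate numbers mark, and these values cannot decide whether they pair the libraries. With the block and without 5-day library 1 (chosen after seeing the data), values were -0.0213 for Bub1 and -0.0895 for Mad1l1 at 24 h, 0.0645 for Bub1, 0.15 for Ttk, 0.0311 for Fzr1, 0.0517 for Fbxo5 and 0.18 for Mki67 at 5 days, and 0.0858 for Bub1 and 0.0825 for Bub1b at 5 days over 24 h.

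With DESeq2 without that library they were -0.00104 for Fbxo5 at 24 h, 0.0994 for Bub1, 0.00628 for Mad1l1, 0.179 for Ttk, 0.0754 for Fzr1, 0.216 for Mki67 and 0.0247 for Mycn at 5 days, and 0.093 for Bub1, 0.0923 for Bub1b and 6.26e-05 for Cdc20 at 5 days over 24 h. With no filter, Bub1 was at -0.0015 and Fbxo5 at -0.00961 at 24 h. Top2a at 24 h was at 0.00528 with DESeq2 or its size factors, 0.0127 with the stricter filter and 0.00889 with the compared groups alone.

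Leaving out each library in turn, or 5-day libraries 1 and 2 together (chosen after seeing the data), turned further signs. The ranges cover both. Without 5-day library 1 alone, Fbxo5 (-0.0122) and Pcna (-0.019) stayed negative at 5 days. At 5 days over 24 h, Cdc20 (-0.0125), Fbxo5 (-0.0181), Fzr1 (-0.0667) and Mad1l1 (-0.0534) stayed negative without it alone. At 24 h the values ran from -0.106 to 0.0938 for Bub1, from -0.0801 to 0.0855 for Fbxo5, from -0.0937 to 0.198 for Mad1l1, from -0.198 to 0.0476 for Mycn and from -0.0989 to 0.0954 for Top2a. At 5 days they ran from -0.356 to 0.159 for Bub1, -0.171 to 0.293 for Bub1b, -0.0397 to 0.415 for Cdc20, -0.473 to 0.119 for Fbxo5, -0.207 to 0.145 for Fzr1, -0.327 to 0.055 for Mad1l1, -0.286 to 0.172 for Ttk, -0.149 to 0.246 for Mki67, -0.456 to 0.0451 for Mycn and -0.324 to 0.0271 for Pcna. At 5 days over 24 h they ran from -0.363 to 0.153 for Bub1, -0.362 to 0.104 for Bub1b, -0.442 to 0.0151 for Cdc20, -0.474 to 0.121 for Fbxo5, -0.338 to 0.0152 for Fzr1 and -0.375 to 0.00847 for Mad1l1. The log2 ratio of Cdc20 to Fzr1 at 5 days over untreated ran from -0.0439 to 0.3278. With each library left out in turn, Cdc20 at 24 h lay between 0.36 and 0.476, and its log2 ratio to Mad2l1 between 0.4061 and 0.5824 at 24 h and between 0.3778 and 0.5322 at 5 days. Other pseudocounts turned no ratio. The causes of these differences were not tested. With 3 or 4 libraries a group, and 1 of them apart, no member had an unadjusted p under 0.05 in the fit on all 10 libraries.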
